A study of Sus scrofa with 6 samples.

Results

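Among the differentially methylated regions (DMRs) between *psoas major* muscle (PMM) and *longissimus dorsi* muscle (LDM) of the pig, 265 of 15633 (1.70%) held almost no signal in PMM. They were chosen by their depth alone, as DMRs with a mean read depth per CpG below 3 over the PMM libraries and of 10 or more over the LDM libraries, and are called low-PMM DMRs here. In methylated DNA immunoprecipitation sequencing (MeDIP-seq), DNA fragments that carry methylated cytosine are captured by an antibody and sequenced. PMM, a red muscle of the loin in which oxidative fibres abound, and LDM, a pale back muscle with mostly fast glycolytic fibres, gave 3 libraries each, all from female Landrace pigs of 210 days. The libraries were grouped by the muscle in the sample title, since the source name reads *longissimus dorsi* in all 6. The same pigs gave both muscles according to the study, but no label ties a replicate number to a pig, so libraries were not paired, and the spread between them may in part be technical.

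In vertebrate DNA most CpGs are methylated. CpG islands, stretches with many CpGs at or near gene starts, are the main exception, and the flanks of an island, called shores, differ in methylation between tissues more often than the islands do. The depth of a MeDIP library at a CpG grows with the methylation of that CpG and of those near it, so that a depth near 0 means few captured fragments and not a measured methylation level. Genes for developmental transcription factors often lie in broad islands, and these can gain methylation in differentiated tissue. A muscle sample also holds vessel, connective, fat and blood cells, and a lower methylation within the fibres cannot be told apart from another share of these cells.

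The 265 low-PMM DMRs covered 30.2 kb and 1913 CpGs and lay on all 19 chromosomes of the table. Their depths were the values they were chosen by and are given as a description. The median depth per CpG was 3.10, 1.16 and 2.60 in PMM replicates 1, 2 and 3, against 13.8, 11.5 and 13.3 in LDM replicates 1, 2 and 3. The ranges over the low-PMM DMRs were 0 to 7.27, 0 to 4.85 and 0 to 5.57 in the PMM libraries, and 8 to 29.2, 7.25 to 25.9 and 8.09 to 31.1 in the LDM libraries. No PMM library overlapped an LDM library at any of the 265, which was so for all listed DMRs (100%), since the table holds only regions that the authors had selected as different. The gap between the lowest LDM library and the highest PMM library ran from 3.44 to 18.1, with a median of 7.21. The median log2 difference, PMM minus LDM, was -2.24 on the scale of log2(depth + 1), with a range of -3.78 to -1.56, which corresponds to a median of 4.72-fold lower in PMM on that scale. Over the other 6617 DMRs lower in PMM with a mean LDM depth of 10 or more the median was -1.36. All 265 were called lower in PMM by limma, and so were 44.0% of all listed DMRs, but the same contrast chose them and nothing is read from this count.

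**Figure D1:**
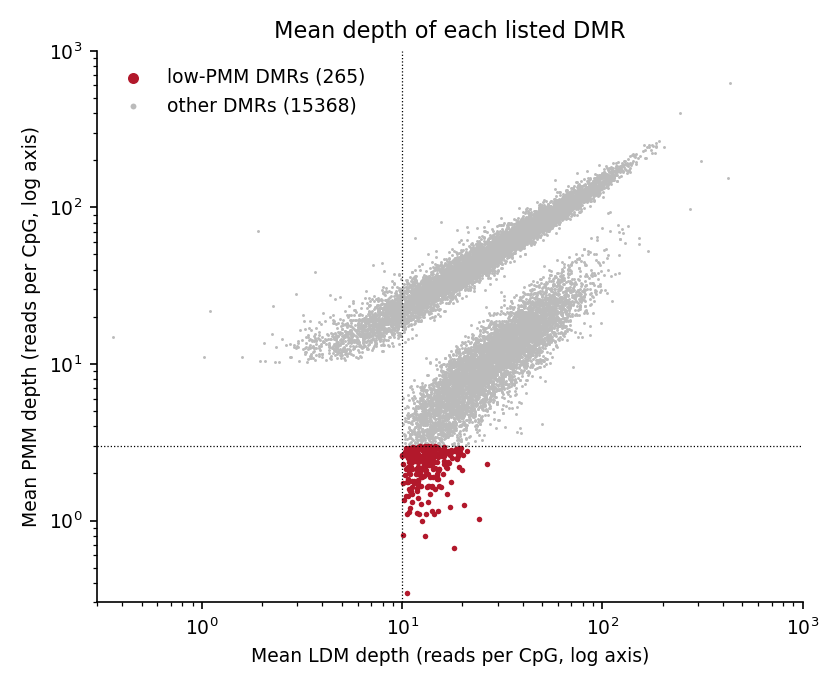
Mean depth of each listed DMR in PMM (vertical axis) against LDM (horizontal axis), in reads per CpG on log axes, with dotted lines at 3 in PMM and 10 in LDM. The 265 low-PMM DMRs (red) form the lower end of the band of DMRs lower in PMM, and 4 DMRs with a mean depth over 1000 lie outside the axes.

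The condition on LDM removed no DMR. Every listed DMR with a mean PMM depth below 3 had a mean LDM depth of at least 10, and the higher of the muscle means was at least 10.01 in every DMR of the table. The low-PMM DMRs were therefore the shallow end of the DMRs lower in PMM, with a median mean LDM depth of 12.9 against 28.7 in the other lower DMRs. Of the listed DMRs in both directions, they made up 10.7% of the 1923 with a mean LDM depth of 10 to 15. Their share was 2.63% of the 2055 with 15 to 20 and 0.0576% of the 10421 with 20 or more. Among DMRs lower in PMM with a mean LDM depth of 10 to 15, there were 205 low-PMM DMRs and 565 others. Nearest to the threshold in PMM, the low-PMM DMR in the gene body of *ANO1*, a calcium-activated chloride channel, had a mean PMM depth of 2.99, and a gene body DMR of *PRDM16*, a zinc finger regulator of brown fat, lay just outside it at 3.01. On the LDM side the lowest was in *OR6B3*, an olfactory receptor gene, at 10.01. In the opposite direction, only 22 DMRs had a mean LDM depth below 3 with 10 or more in PMM.

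At least 1 PMM library was at a depth of 0 at 62 of the 265, mostly PMM replicate 2. PMM replicate 2 read 0, that is no read over any CpG of the DMR, at 48 low-PMM DMRs, PMM replicate 1 at 10 and PMM replicate 3 at 7, while no LDM library read 0. Over all listed DMRs, PMM replicates 1, 2 and 3 read 0 at 11, 73 and 7, so the rule on PMM depth took most of these. None of the 265 was at 0 in all 3 PMM libraries, 3 were at 0 in 2 libraries, and 203 had reads in every PMM library. PMM replicate 2 was alone the lowest PMM library at 175 of the 265, while PMM replicate 1 was the highest at 136. All 3 PMM libraries were below 3 at 47, all 3 LDM libraries reached 10 at 191, and both held at 29. The signal behind the PMM values was small, with a median per DMR of 15, 6 and 16 overlaps of a read with a CpG in PMM replicates 1, 2 and 3, against 91, 71 and 83 in LDM replicates 1, 2 and 3. One read can cover several CpGs, so these are fewer reads than overlaps, and no counting interval was derived from them.

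The number of low-PMM DMRs depended on single PMM libraries. It was 467 without PMM replicate 1, of which 242 were among the 265, and 178 without PMM replicate 2, of which 149 were. Without PMM replicate 3 it was 321, and leaving out an LDM library gave 250 to 260. The other DMRs lower in PMM also had their lowest median in PMM replicate 2, at 9.14, against 12.9 in PMM replicate 1 and 10.3 in PMM replicate 3.

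**Figure D2:**
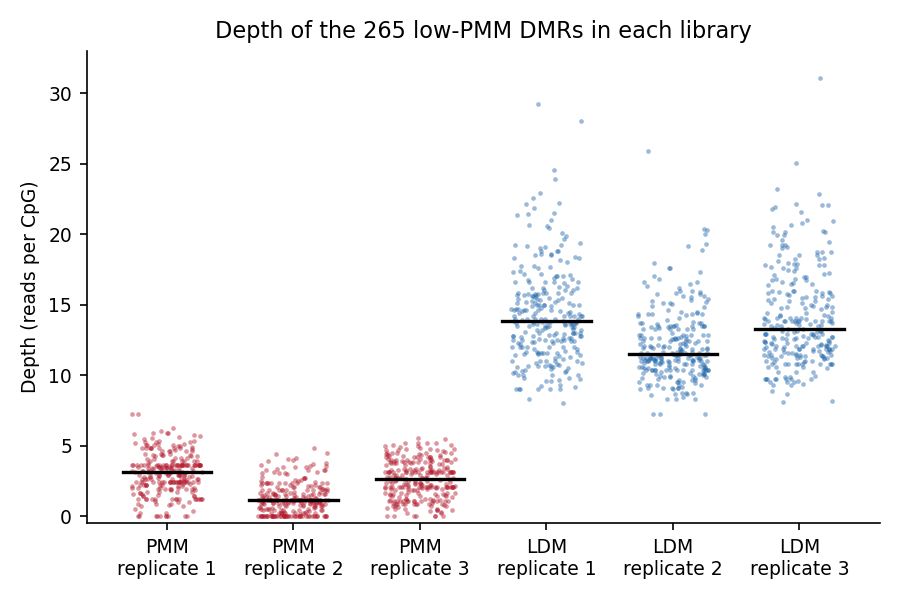
Depth of the 265 low-PMM DMRs in reads per CpG (vertical axis) in each PMM library and each LDM library (horizontal axis), with 1 point per DMR and a bar at the median. The PMM medians are 3.10, 1.16 and 2.60 and the LDM medians 13.8, 11.5 and 13.3, with PMM replicate 2 lowest.

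The rule used neither the position nor the CpG content of a region. Low-PMM DMRs had a median length of 101 bp (17 to 958 bp), against 99 bp in the other DMRs lower in PMM and 134 bp in all DMRs. They held a median of 6 CpGs (5 to 27), and 15.5% had 10 or more, against 27.2% of the other lower DMRs. The median CpG density was 6.87 per 100 bp, which lay between the 7.69 of the other lower DMRs and the 5.38 of all DMRs. With the table divided into 4 classes of CpG density of nearly equal size, low-PMM DMRs were 0.358% of the sparsest class, 1.43% and 2.32% of the middle classes and 2.66% of the densest. Among the DMRs lower in PMM alone the sparser classes held the larger shares, with 14 of 239 (5.86%), 56 of 934 (6.0%), 90 of 2421 (3.72%) and 105 of 3288 (3.19%) from the sparsest class to the densest.

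CpG islands and shores held a larger share of the low-PMM DMRs than of the other DMRs lower in PMM or of all listed DMRs. The shares here and below are counts over regions of 1 table, which are not replicates, and were not tested. An island held 23 of the 265 (8.68%), against 2.63% of the other DMRs lower in PMM and 1.45% of all DMRs. A shore without an island held a further 44 (16.6%), against 7.78% of the other lower DMRs and 6.95% of all DMRs. The 22 DMRs of the opposite pattern, with a mean LDM depth below 3, had like shares on far fewer regions, 2 in an island (9.09%) and 3 in a shore only (13.6%), so that these shares did not set the low-PMM DMRs apart from them. Read the other way, low-PMM DMRs were 23 of the 226 island DMRs, 44 of the 1086 shore DMRs (4.05%) and 198 of the 14321 in neither (1.38%). These totals include DMRs higher in PMM, which the rule could not take. The other DMRs lower in PMM were 174 in islands, 515 in shores and 5928 in neither. Among lower DMRs alone the contexts therefore differed less, in the same order. In the densest class, again over both directions, low-PMM DMRs were 17 of 133 island DMRs (12.8%), 13 of 242 shore DMRs (5.37%) and 75 of 3573 in neither (2.10%). In the next densest class they were 6 of 78 (7.69%), 11 of 304 (3.62%) and 73 of 3491 (2.09%), the same order. The sparser classes held few island DMRs, and of these 0 of 11 and 0 of 4 were low-PMM DMRs, against 11 of 328 and 9 of 212 shore DMRs. At like LDM depth the comparison, added after the values were seen, gave shares in the same direction. Among DMRs lower in PMM with a mean LDM depth of 10 to 15, 49 of 205 low-PMM DMRs (23.9%) lay in an island or shore, against 65 of 565 others (11.5%). Inside the islands the low-PMM DMRs had median depths of 2.42, 0.930 and 2.43 in the PMM libraries and 13.8, 11.4 and 15.3 in the LDM libraries. The rule bounded the depths inside and outside islands alike, so nothing is read from their likeness.

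**Figure D3:**
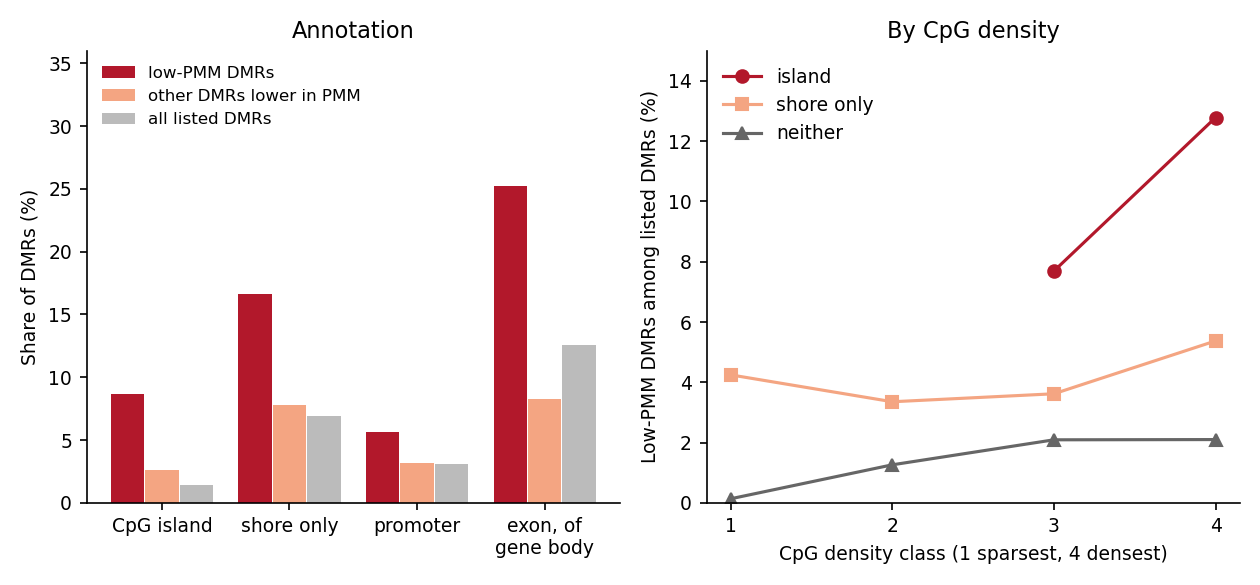
Left, share of low-PMM DMRs, other DMRs lower in PMM and all listed DMRs (percent, vertical axis) in CpG islands, in shores only, in promoters, and, of those in gene bodies, over an exon. Right, low-PMM DMRs as a percentage of listed DMRs, lower or higher in PMM (vertical axis), by 4 classes of CpG density (horizontal axis). Classes of under 20 DMRs are left out, and islands reach 12.8% in the densest class.

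With respect to genes, 15 low-PMM DMRs (5.66%) were annotated to a promoter, 95 (35.8%) to a gene body, 4 to the stretch just downstream of a gene and 151 (57.0%) to intergenic DNA. Promoters held 3.19% of the other DMRs lower in PMM and intergenic DNA 60.9%. With a mean LDM depth of 10 to 15 the promoter shares were closer, at 12 of 205 low-PMM DMRs (5.85%) and 23 of 565 others (4.07%). Of the 95 in gene bodies, 24 (25.3%) touched an exon, against 186 of 2241 (8.30%) of the other lower DMRs and 12.6% of all. For exons, the shares at that LDM depth were 18 of 74 (24.3%) and 23 of 188 (12.2%). Chromosome 6 held the most low-PMM DMRs, 30 of its 1190 listed DMRs (2.52%), against 1.70% over all chromosomes. The shares ran from 0.503% on chromosome 10, on 4 low-PMM DMRs, to 2.71% on chromosome 16, on 12.

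A gene symbol was given for 110 low-PMM DMRs, at 113 genes. Of the 9 gene lists examined, that of developmental transcription factors held the highest share, with 9 low-PMM DMRs among its 102 DMRs (8.82%), against 110 of 6001 (1.83%) over all DMRs with a symbol. The list as a whole was not lower in PMM, since 42 of its DMRs were lower and 60 higher. Of the 9, 8 lay in an island or shore, where 30.4% of the DMRs of the list lay, against 11.9% of all DMRs with a symbol. Axon guidance and neural adhesion genes held 4 low-PMM DMRs of 79 (5.06%), extracellular matrix and integrin genes 4 of 93 (4.30%), ion channels and transporters 9 of 270 (3.33%) and contractile and muscle regulator genes 2 of 60 (3.33%). Chromatin and methylation enzymes held 1 of 97 (1.03%) and GTPase regulators 1 of 236 (0.424%). None was found among the 79 DMRs of energy metabolism genes or the 49 of vessel, leukocyte and fat cell marker genes.

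*LBX1*, a homeobox gene that migrating precursors of limb muscle require, had 1 listed DMR. It lay in an island of the first intron (chr14:122028358-122028541, 14 CpGs) and read 0.519, 0 and 1.48 in the PMM libraries and 22.2, 15.9 and 16.6 in the LDM libraries, 12.2-fold lower in PMM. *FOXB2*, a forkhead factor of the developing brain, had a low-PMM DMR of 24 CpGs just downstream of the gene (chr1:256671248-256671783), the only 1 of these 9 outside an island or shore. It read 2.47, 0.727 and 0.476 in PMM and 19.6, 15.6 and 16.5 in LDM, 8.78-fold lower in PMM.

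*ZIC2* encodes a zinc finger factor of dorsal neural patterning. Downstream of it, a shore DMR (chr11:76109627-76109825, 10 CpGs) had depths of 2.42, 0.698 and 0.624 in PMM and 21.5, 18.9 and 20.8 in LDM, 10.1-fold lower in PMM. An intergenic low-PMM DMR lay 513 bp from it inside the island (chr11:76110339-76110403), at 0.792 ± 0.686 in PMM and 13 ± 2.77 in LDM (SD, n = 3 each). No other listed DMR was assigned to *ZIC2*.

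*SIM1*, a helix-loop-helix factor required for hypothalamic neurons, held the low-PMM DMR with the most CpGs, 27 over 958 bp of a shore in the first intron (chr1:76064063-76065020). It read 0.224, 2.58 and 0.577 in PMM and 11.3, 9.67 and 11.3 in LDM, and here PMM replicate 2 was the highest of its muscle and not the lowest. An island DMR over an internal exon (chr1:76055221-76055397) had 3.88, 0.930 and 1.14 in PMM and 14, 11.1 and 15.3 in LDM. Between these lay a pair of *SIM1* shore DMRs outside the rule, with means of 3.09 ± 3.64 and 6.11 ± 3.91 in PMM and 17.6 ± 1.45 and 23.2 ± 2.90 in LDM (SD, n = 3 each). At *MAB21L2*, a gene needed for eye development in the mouse, an island in the promoter, shared with *LRBA* (chr8:83285282-83285316), read 2.42, 0 and 4.99 in PMM and 11.6, 11 and 10.8 in LDM, 4.43-fold lower in PMM, or 2.68-fold without PMM replicate 2. Besides the low-PMM DMRs, the 7 developmental genes had 4 listed DMRs, and all 4 were lower in PMM.

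**Figure D4:**
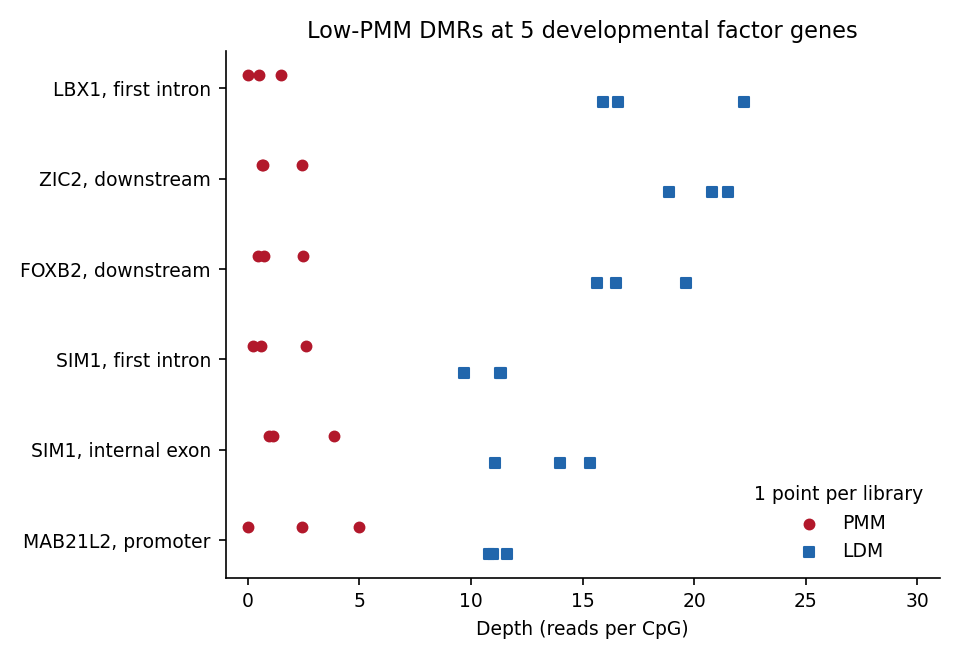
Depth of the low-PMM DMRs at *LBX1*, *ZIC2*, *FOXB2*, *SIM1* and *MAB21L2* in reads per CpG (horizontal axis), with 1 point per library, PMM as circles and LDM as squares. At each of these DMRs the PMM points lie left of the LDM points, and at *ZIC2* PMM is at most 2.42 and LDM at least 18.9.

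A gene symbol was given for 14 of the 15 promoter DMRs. Promoters are divided by CpG content into high (HCP), intermediate (ICP) and low (LCP) classes, and the 15 fell as 8 HCPs, 5 ICPs and 2 LCPs. Their median mean depth was 2.37 in PMM and 12.8 in LDM. The X chromosome held 7 of them, which was 11.9% of its 59 promoter DMRs, against 8 of 419 (1.91%) on the autosomes, while X held 6.42% of all low-PMM DMRs and 6.06% of all DMRs.

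On X, the promoter DMR of *ACSL4*, an acyl-CoA synthetase for arachidonic acid, lay in an island (chrX:105452308-105452401). It read 5.25, 0 and 3.64 in PMM and 15.8, 13.3 and 11.9 in LDM, which was 4.74-fold lower in PMM but 2.71-fold without PMM replicate 2. *FHL1*, a LIM domain protein abundant in skeletal muscle, had 3.15, 1.16 and 2.08 in PMM and 11.6, 12.9 and 12.9 in LDM in a shore of a promoter (chrX:127288114-127288141). A pair of further *FHL1* promoter DMRs, upstream in coordinate, were also lower in PMM, at 8.76 ± 1.61 and 10.7 ± 2.83 in PMM and 26.7 ± 5.22 and 35.2 ± 5.58 in LDM (SD, n = 3 each), while a DMR in its introns was higher at 58.9 ± 3.78 in PMM and 39.7 ± 5.39 in LDM. The promoters of *XPNPEP2*, an aminopeptidase, *NHS* with *SCML1*, and *TMEM35* had means of 2.77, 2.37 and 2.54 in PMM and 15.7, 12.8 and 12.5 in LDM. The other listed DMRs of *XPNPEP2* and *SCML1* were higher in PMM. Another X promoter was that of a gene named only CH242-141J21.1, with 1.89 ± 1.85 in PMM and 14.2 ± 3.36 in LDM (SD, n = 3 each).

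On the autosomes, the promoter shore of *CHRAC1*, a histone-fold subunit of a chromatin remodelling complex, read 3.75, 4.02 and 0 in PMM and 19.1, 12.1 and 16.5 in LDM (chr4:2423179-2423281). This was 5.77-fold lower in PMM and 3.40-fold without PMM replicate 3, the library at 0. The promoter of *PLA2G2F*, a secreted phospholipase, had 3.64, 0 and 3.12 in PMM and 15, 10.8 and 13.6 in LDM (chr6:72603132-72603218), 5.24-fold lower, or 3.21-fold without PMM replicate 2. Replicates were closer at *RECQL4*, a DNA helicase (chr4:380575-380814), where all PMM libraries had reads, 1.90, 1.66 and 1.48 in PMM against 13, 10.5 and 12.6 in LDM. On the same chromosome, the promoter of *PPP1R16A*, a regulatory subunit of a protein phosphatase, stood at 2.38 ± 0.538 in PMM and 12 ± 1.57 in LDM (SD, n = 3 each). The promoter island of *CTSZ*, the lysosomal protease cathepsin Z, shared with *NELFCD* (chr17:66510304-66510432), had 2.36 ± 1.5 in PMM and 13.4 ± 1.92 in LDM (SD, n = 3 each).

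In gene bodies the lowest PMM mean of all belonged to *KIF13B*, a kinesin motor. Its intronic DMR (chr14:14158890-14158934, 5 CpGs) read 0, 0 and 1.04 in PMM and 10.4, 10.4 and 10.8 in LDM, 9.08-fold lower in PMM. The highest LDM mean, 26.5 ± 5.51 against 2.30 ± 2.08 in PMM (SD, n = 3 each), was in an intron of *SCAP*, the escort protein of the sterol-regulated SREBP factors (chr13:33495225-33495370). In the first intron of *SYNJ2*, a phosphoinositide phosphatase (chr1:11204378-11204429), the PMM libraries were far apart, at 7.27, 0 and 1.04 in PMM against 17.6, 25.9 and 19.4 in LDM. The fold of 8.46 became 15.2 without PMM replicate 1 and 5.28 without PMM replicate 2. *TRIM2*, a ubiquitin ligase of neurons, read 2.42, 0 and 0 in PMM and 10.0, 8.29 and 11.9 in LDM (chr8:80337453-80337542), 7.27-fold lower, or 11-fold without PMM replicate 1. The other listed *TRIM2* DMR was higher in PMM. An exon of *MAST1*, a microtubule-associated kinase, had 1.10 ± 1.04 in PMM and 14.4 ± 4.33 in LDM, and the last intron of *PTPDC1*, a phosphatase gene, 1.0 ± 0.716 in PMM and 12.6 ± 2.65 in LDM (SD, n = 3 each).

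Among extracellular matrix genes, an internal exon of *FN1*, which encodes fibronectin, had 5.21, 0 and 2.70 in PMM and 22.9, 17.6 and 20.2 in LDM (chr15:130402403-130402542). The fold was 7.43 and fell to 4.4 without PMM replicate 2. The other listed *FN1* DMRs, 2 in number, were higher in PMM, at 57.6 ± 3.72 and 55.6 ± 8.19 in PMM and 27 ± 4.34 and 25.6 ± 3.77 in LDM (SD, n = 3 each). The collagen genes *COL4A4* and *COL7A1* had means of 2.32 and 2.11 in PMM and 17.0 and 13.1 in LDM, and *ADAMTS16*, a secreted metalloprotease, 2.15 in PMM and 12.8 in LDM. Of the 5 other listed DMRs of *ADAMTS16*, 3 were lower in PMM and 2 higher.

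Among guidance genes, an intron of *SLIT3*, a secreted ligand of Robo receptors, read 0, 0 and 4.90 in PMM and 15.6, 13.8 and 10.5 in LDM (chr16:59755980-59756072), so that PMM replicate 3 alone carried its PMM signal. The ephrin ligand *EFNA2*, the netrin receptor *UNC5B* and the synaptic adhesion gene *NLGN3* had means of 1.99, 2.68 and 2.97 in PMM and 14.9, 14.7 and 16.1 in LDM. The other listed DMRs of *SLIT3* and *UNC5B* were higher in PMM, while that of *NLGN3* was lower. The contractile list was represented by an exon of *MYBPC3*, the cardiac myosin binding protein C, with 2.74 ± 2.73 in PMM and 13.3 ± 1.13 in LDM, and by *MYLK2*, the myosin light chain kinase of skeletal muscle, in a DMR also assigned to *DUSP15*, with 2.01 ± 1.35 in PMM and 10.9 ± 0.886 in LDM (SD, n = 3 each). Among channels and transporters, *CLCN4*, a chloride-proton exchanger, and *SLC31A2*, a copper transporter whose DMR is also assigned to *FKBP15*, had 2.97 and 2.84 in PMM and 13.5 and 13.4 in LDM. The other listed *CLCN4* DMR was higher in PMM, at 85.7 ± 7.76 in PMM and 53.7 ± 1.58 in LDM (SD, n = 3 each). *CLCN1*, the chloride channel of the muscle membrane, named after its values were seen, had 2.20 ± 2.39 in PMM and 12 ± 2.23 in LDM in its first intron, while a second *CLCN1* DMR was higher in PMM, at 42.8 ± 4.76 in PMM and 21.9 ± 2.60 in LDM (SD, n = 3 each). The single low-PMM DMRs of the chromatin and GTPase lists were in *KMT2C*, a histone H3 methyltransferase, at 2.74 in PMM and 10.4 in LDM, and in *AGAP1*, an Arf regulator, at 2.63 in PMM and 13.5 in LDM. Both other listed DMRs of *KMT2C* were higher in PMM, and of the 5 others of *AGAP1* 3 were lower and 2 higher.

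Genes with more than 1 low-PMM DMR included *SIM1*, *PTPRE* and *SLC45A4*. *PTPRE*, a receptor-type tyrosine phosphatase, had a pair 5795 bp apart in an intron, at 3.39, 1.16 and 3.74 in PMM and 14, 16.2 and 19.0 in LDM (chr14:149104711-149104782) and at 3.64, 0 and 4.50 in PMM and 19.3, 12.4 and 17.6 in LDM (chr14:149110578-149110659). The second was 5.84-fold lower in PMM, or 3.40-fold without PMM replicate 2. Unlike *SIM1*, *PTPRE* mixed directions, since of its other DMRs 3 were lower in PMM and 4 were higher, the deepest at 172 ± 6.18 in PMM and 135 ± 9.21 in LDM (SD, n = 3 each). *SLC45A4*, a solute carrier, had a pair in the first intron at 2.92 and 2.16 in PMM and 10.9 and 12.9 in LDM, and both of its other DMRs were lower in PMM.

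**Figure D5:**
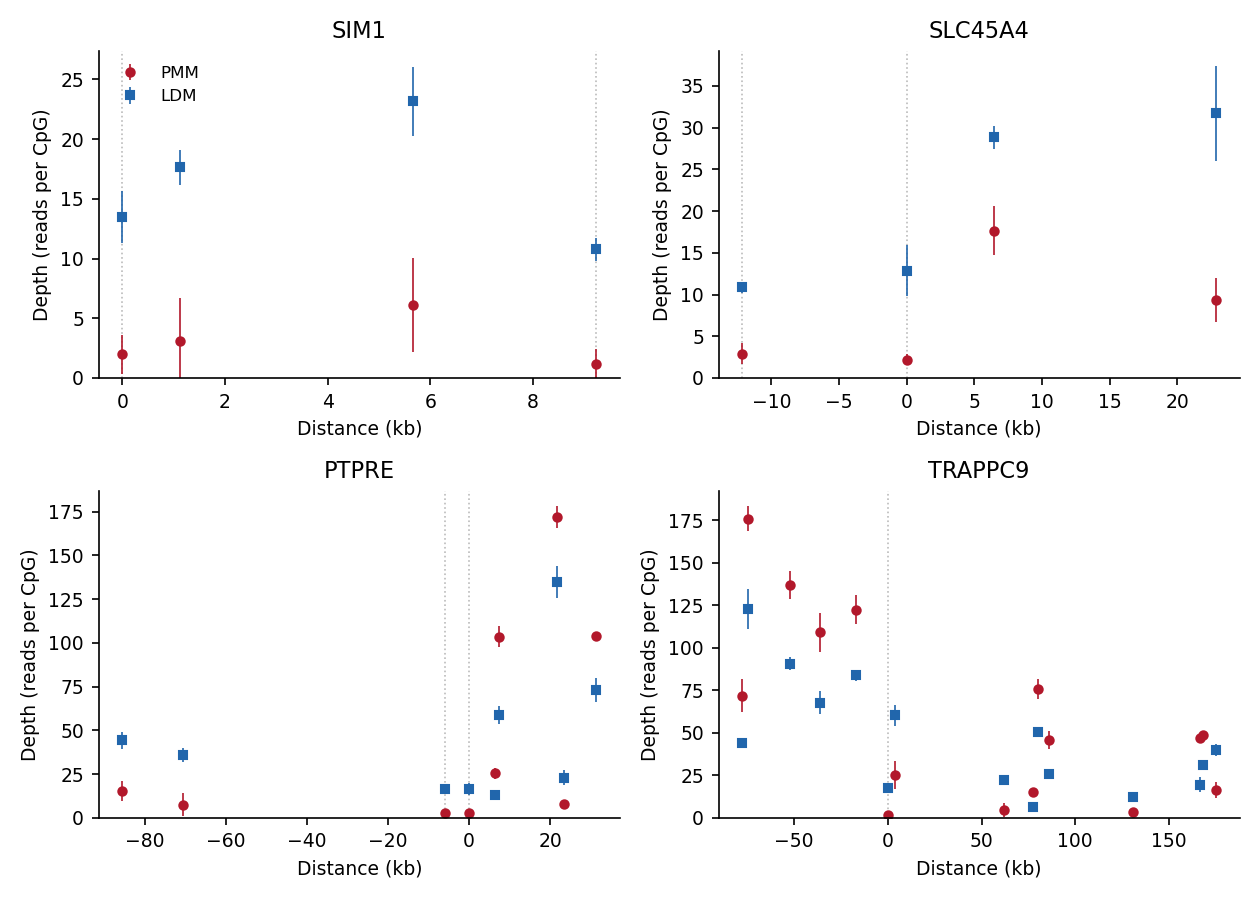
Mean depth ± SD (n = 3 libraries per muscle) in reads per CpG (vertical axis) of all listed DMRs of *SIM1*, *SLC45A4*, *PTPRE* and *TRAPPC9*, by distance in kb from the low-PMM DMR with the highest LDM mean (horizontal axis), with dotted lines at the low-PMM DMRs. PMM (circles) lies under LDM (squares) at every DMR of *SIM1* and *SLC45A4*, and on both sides of it at *PTPRE* and *TRAPPC9*.

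*TRAPPC9*, which encodes a subunit of a vesicle tethering complex, was named after its values were seen for its mixture of directions. Its low-PMM DMR (chr4:2684983-2685149) had 1.21, 1.16 and 2.94 in PMM and 17.0, 15 and 20.7 in LDM, while of its 14 other DMRs 4 were lower in PMM and 10 higher. Over the 62 genes that held both a low-PMM DMR and other DMRs, 74 of the 160 others were lower in PMM (46.3%), against 41.9% of all other DMRs with a symbol. *TRAPPC9* and *NHS*, where 4 of 15 others were lower, held the most of these other DMRs.

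Of the 74 other DMRs within 10 kb of a low-PMM DMR, 45 (60.8%) were lower in PMM, against 43.1% of the 15368 DMRs outside the rule. Their median depths were 18.5, 13.4 and 17.5 in PMM and 23.6, 21.6 and 24.5 in LDM. Within 100 kb the share was 291 of 615 (47.3%). Low-PMM DMRs were about as isolated as the rest, with another DMR within 10 kb for 24.5% of them and 24.9% of all DMRs, and 14 of them formed 7 pairs closer than 10 kb. Besides the pairs at *SIM1*, *PTPRE* and *ZIC2*, an intergenic pair in islands on chromosome 1 lay 1197 bp apart. Its DMR of 21 CpGs (chr1:247837474-247837702) read 4.33, 1.5 and 2.43 in PMM and 19.2, 17.3 and 22 in LDM, and its DMR of 5 CpGs (chr1:247838900-247838919) read 2.42, 0 and 1.04 in PMM and 14.6, 12.9 and 17.9 in LDM.

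Further intergenic low-PMM DMRs, which the table assigns to no gene, were among those with the most CpGs. An island on chromosome 1 (chr1:8638461-8638668, 17 CpGs) had 2.45 ± 1.07 in PMM and 13.2 ± 2.98 in LDM, and a region of chromosome 4 outside islands (chr4:101292233-101292407, 15 CpGs) had 1.67 ± 1.63 in PMM and 14.1 ± 1.92 in LDM (SD, n = 3 each). The intergenic DMR with the largest difference lay in an island on the same chromosome (chr4:142375772-142375952, 12 CpGs), at 3.53, 0 and 0.866 in PMM and 15.8, 14.3 and 20.1 in LDM, 8.62-fold lower in PMM. Most of its PMM signal came from PMM replicate 1. Over all 265, a single PMM library held more depth than the other two together at 185, and that library was PMM replicate 1 at 103, PMM replicate 3 at 70 and PMM replicate 2 at 12.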

How the data were processed

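MeDIP-seq was done on PMM and LDM, 3 libraries each. According to the methods of the study, the authors aligned filtered reads with SOAP2 to the pig genome (Sscrofa10.2, also the build in the submitters' processing notes). By the same methods they dropped CpGs under a read depth of 10, tested each CpG between the muscles and joined differing CpGs into DMRs of 5 or more CpGs. The study does not state over which libraries the depth of 10 was taken. Every listed DMR reaches it in the muscle with the higher mean, but not always in both. The deposited values are coverage per library, given as read depth averaged over the CpGs of a DMR and scaled by the authors with 1 factor per library (a signal, not counts). Multiplied by the CpG number, 100% of the values were whole multiples of a constant within a tolerance of 0.1. The step was 1.21, 1.16 and 1.04 in PMM replicates 1, 2 and 3 and 1.00, 1.04 and 1.08 in LDM replicates 1, 2 and 3. Reads over several CpGs enter repeatedly, so no count model was used, and the total depth of each library, which the table does not hold, was not used here. Median depth over all DMRs was 23.8 to 25.4 in PMM and 26.2 to 28.0 in LDM. The table lists only regions selected on these 6 libraries, with the authors' muscle averages, p-values and false discovery rates, which were not used.

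The 18176 rows were merged into 15633 DMRs, and a DMR with several annotations was placed by priority, promoters before gene bodies, then downstream stretches, then intergenic DNA. Human symbols were used where given, otherwise pig symbols, and 37 symbols turned into dates were treated as missing. Positions count from 1. Depth was taken as log2(depth + 1), PMM minus LDM, and folds are on that scale, which understates the change at low depth. limma 3.58.1 (R 4.3.3, lmFit and eBayes with a variance trend, Benjamini-Hochberg adjustment over all DMRs, threshold 0.05) was fitted without pairing for the background share. It was also run on simulated data in which few DMRs changed, unlike the listed DMRs, so nothing is read from that run. Tables were made with Python 3.11.15, pandas 2.3.3, numpy 2.4.6 and scipy 1.17.1.

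The members and gene lists were chosen with earlier results of these data known. The DMRs named are the 10 with most CpGs (of these, those with a symbol or 15 or more CpGs), the 10 with the lowest PMM mean (those with a symbol first), the 5 with the highest LDM mean, promoters with a symbol (at most 12), all of the developmental list, genes with several, those nearest the thresholds, and up to 4 per other list. Some DMRs that this rule names are not reported here. Depth does not give expression, so the muscle labels were not checked by marker genes. Alternatives covered the pseudocount, scaling factors, thresholds, single libraries, a depth filter, the variance trend, the replicate block and the neighbour distance. No sequence is printed, since no genome of this build was used here.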

Additional observations from a re-analysis of the deposited data

How the results depend on the processing

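The number of low-PMM DMRs, 265, follows the thresholds. It was 70 with a mean PMM depth below 2, 564 below 4 and 60 with a mean LDM depth of 15 or more, and 178 to 467 with 1 library left out. Medians over libraries gave 300 (201 shared) and removing the scaling factors 354 (259 shared). For members chosen with PMM below 2, PMM below 4 or 1 library left out, the share in islands or shores was 34.3% with PMM below 2 and 21.6% to 26% otherwise, and the median CpG density ran from 6.58 to 7.40 per 100 bp. Neither was computed for the other choices of members. With a pseudocount of 4 the median log2 difference was -1.47, which follows from the larger constant, and with 1 library left out it ran from -2.38 to -1.98. The share of neighbouring DMRs lower in PMM was 75% within 1 kb, on 4 DMRs, and 47.3% within 100 kb. Of 378 alternative values for named DMRs, 40 moved by more than the spread between libraries, all with another pseudocount, and 0 reversed. A reversal with another pseudocount or 1 library left out was not possible, since no PMM library overlapped an LDM library. Leaving out 1 of 3 libraries also cannot shift a mean by more than that spread, so those values could not count as moved. The fold of 8 named DMRs nevertheless changed by more than 1.5 times with 1 library left out. The number of DMRs lower in PMM was 6860 to 6871 with 1 library left out. It was 6075 among the 14581 DMRs with a mean depth of 10 or more over all libraries. Only 23 of the 265 low-PMM DMRs passed this depth filter, so its count says little about them. Equal replicate numbers correlated at 0.0377, 0.2405 and 0.0185 after removal of the group means, and unequal numbers at -0.2122 to 0.1814. These values do not settle the pairing, and since no label ties a number to a pig, equal numbers were not taken as pairs. With the replicate block the number of DMRs lower in PMM was 6870 against 6875 without. All 265 low-PMM DMRs were lower in both, but the same contrast chose them and nothing is read from this. PMM values rest on few reads, with a median of 6 overlaps per DMR in PMM replicate 2, so their order among low-PMM DMRs is imprecise.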
